A study of Oryza sativa with 2 samples.

Results

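The genes described here are the calcium sensors and calcium-regulated kinases of rice, chosen by the wording of their deposited description. A locus was a member when its description contained calmodulin, calcium-dependent protein kinase or Calcium-binding EF-hand, and did not contain calmodulin-binding. The rule used no measured value and took 92 of the 26715 loci in the expression table. Of these, 42 were described as a Calcium-binding EF-hand family protein, 28 as a calcium-dependent or calmodulin-domain protein kinase, 11 as a calmodulin and 7 as a calmodulin-like protein. The other 4 were a calmodulin-related protein and 3 loci worded as a calmodulin (CAM)-binding protein of 25 kDa, which the rule admits because of the bracket.

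Leaf RNA was sequenced from wild-type *japonica* rice cv. Zhonghua11 and from *wlp2s*, a mutant line with white leaves and panicles that was found in an EMS-mutagenized population of the same cultivar. *WLP2* encodes a plastid protein of the fructokinase-like family, a component of the machinery that transcribes plastid genes. Both genotypes were grown as seedlings on MS medium at a constant 32 °C with 12 h of light and 12 h of dark, so both were at the same high temperature and no library at another temperature is used here. Each genotype is 1 library, and the mutant is 1 line whose other induced mutations were not analysed here, so no difference has a replicate check and no p-value is given.

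Calcium ions act as a messenger in plant cells. Light, heat, cold, wounding and microbes each raise calcium in the cytosol for a short time, and proteins that carry EF hands, a helix-loop-helix fold that holds the ion, change shape when they bind it. Calmodulin is the most conserved of these sensors and works by attaching to other proteins, while calmodulin-like proteins are its more divergent plant relatives. Calcium-dependent protein kinases join a kinase domain and a calmodulin-like domain in 1 chain, so that calcium switches on the kinase directly, and calmodulin-domain protein kinase is another name for them. Many of these genes are known for roles in immunity, drought and salt responses.

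Levels are given in RPKM, reads scaled to transcript length and to the depth of the library, with the transcript models of a locus added up. The filter kept 18639 loci that reached an RPKM of 1 in either library. For each, log2(RPKM + 1) of wild-type was subtracted from that of *wlp2s*, and a locus whose difference reached 1 in size is called past the size rule, on a scale that understates differences of low genes. A fold divides the counts of both libraries after scaling to depth, and is followed in brackets by an exact 95% binomial interval that covers counting error only. Depth was 9080323 counts in wild-type and 9327778 in *wlp2s*. At 7274 of the 18639 loci the counts were not whole numbers within a tolerance of 0.001 because the authors' counting split reads among models or loci. Of 90 loci described as photosystem, antenna or Rubisco small-subunit proteins, which mark leaf mesophyll, 88 passed the filter, none was at 0 and their summed level was 28140 RPKM in wild-type and 25833 RPKM in *wlp2s*. *WLP2* itself (LOC_Os01g63220) had 126 counts in wild-type against 178 in the mutant-labelled library, a fold of 1.38 (1.09 to 1.74). The genotype of each library was not checked from its reads, and whether the labels could be exchanged was not tested. Each direction given here rests on the labels.

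Most calcium sensor and kinase genes were not past the size rule, and the ones that were past it were all higher in *wlp2s*. In RNA of whole leaves, more cells of a type and more RNA per cell cannot be told apart. Of the 92 members, 67 passed the filter. Among these, 5 were higher by the size rule, and 0 were lower. Over all loci past the filter, 1.79% were higher and 1.01% were lower. Of the 5, 4 were EF-hand family proteins and 1 was a calmodulin-like protein. The latter, LOC_Os05g24780, passed the filter only through *wlp2s*, at 0.515 RPKM in wild-type and 2.51 in *wlp2s*. The median difference was 0.10 over the 67 members, with quartiles of -0.21 and 0.30, and 0.00 over all loci.

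By counting error alone, 23 of the 67 members had an interval wholly above 1 (34.3%) and 11 wholly below 1 (16.4%). The same shares over all loci were 16.1% and 15.4%. Intervals narrow with more counts, and the median level in wild-type was 16.2 RPKM for these members against 9.29 over all loci. The shares were not matched for level, so part of the gap may lie in abundance. The remaining 33 members had intervals that included 1. Reads were divided at 43 of the 67 members , and there the level of a single locus depends on how the authors divided them.

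**Figure D1:**
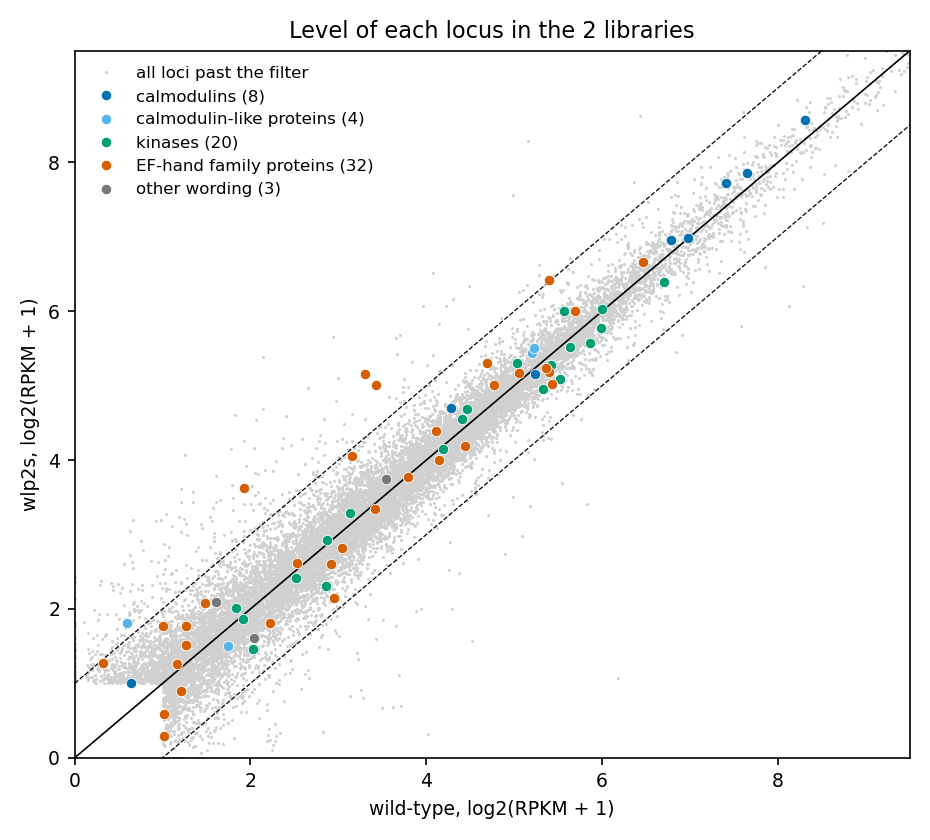
Level of each locus as log2(RPKM + 1) in wild-type (horizontal axis) and *wlp2s* (vertical axis), with members coloured by role over all loci past the filter in grey. The solid line marks equal levels and the dashed lines a difference of 1. The 5 loci above the upper dashed line are 4 EF-hand family proteins and 1 calmodulin-like protein, and no member lies below the lower one.

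The calmodulin genes were the most abundant of these transcripts and lay slightly higher in the mutant library. Of 11 calmodulin loci, 8 passed the filter, none was past the size rule, 5 had intervals above 1 (62.5%) and none had an interval below 1. Over all loci the interval shares were 16.1% and 15.4%, at a median level in wild-type of 9.29 RPKM against 117 for calmodulins. Their summed level was 975 RPKM in wild-type and 1129 RPKM in *wlp2s*, and their summed counts differed 1.16-fold (1.13 to 1.20). Calmodulins made up 43.7% of the summed RPKM of all members in wild-type and 45.3% in *wlp2s*.

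The highest member in both libraries was the calmodulin LOC_Os03g20370, with 316 RPKM in wild-type and 379 in *wlp2s*. Its fold was 1.20 (1.14 to 1.26). Next in order came LOC_Os07g48780 at 199 and 230 RPKM, a fold of 1.15 (1.08 to 1.24), and LOC_Os05g41210 at 169 and 209 RPKM, a fold of 1.24 (1.16 to 1.32). All 3 were described as calmodulin 5, as were 9 of the 11 calmodulin loci, after a match to an Arabidopsis gene. The order of the 5 highest calmodulins was the same in both libraries, with LOC_Os01g17190 (125 and 126 RPKM) and LOC_Os01g16240 (109 and 123 RPKM) in the last places.

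Not every calmodulin was higher. LOC_Os01g17190 had a fold of 1.01 (0.92 to 1.10) and LOC_Os01g59530, at 36.6 and 34.7 RPKM, one of 0.95 (0.81 to 1.11), so neither differed by more than counting error. The calmodulin with the largest difference upwards among those of at least 5 RPKM was LOC_Os03g53200, the only locus described as calmodulin 1, with 18.5 RPKM in wild-type and 25.1 in *wlp2s*. Its difference was 0.42 and its fold 1.36 (1.17 to 1.58). Reads were divided at 7 of the 8 calmodulins, and the eighth, LOC_Os12g03816, had only 7 and 13 counts.

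The calmodulin-like genes were weaker, and 1 of them was past the size rule. Of 7 loci, 4 passed the filter, and their summed counts were 1.21-fold (1.11 to 1.33) higher in *wlp2s*. LOC_Os05g24780 had 4 counts in wild-type and 20 in *wlp2s*, or 0.515 and 2.51 RPKM. It was 4.87-fold higher, with a counting interval from 1.63 to 19.6 that reflects the few counts. With 5 in place of 1 added to RPKM its difference was 0.45 in place of 1.21, under the size rule. The more abundant LOC_Os07g48340 stood at 36.4 and 44.6 RPKM, a fold of 1.23 (1.07 to 1.42). LOC_Os03g21380 stood at 35.8 and 42.5 RPKM, a fold of 1.18 (1.05 to 1.33). The level of LOC_Os08g04890 was 2.36 RPKM in wild-type and 1.84 RPKM in *wlp2s*, within counting error. All 4 were described as calmodulin like 42, and the other 3 loci of the role had at most 1 count in wild-type and 3 in *wlp2s*.

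Kinases were lower in sum by a small margin. Of 28 kinase loci, 20 passed the filter, and none was past the size rule in either direction. Differences ran from -0.56 to 0.44 with a median of -0.07, and 12 of 20 were below 0. Over the 4 kinases with whole-number counts alone the median was 0.01. Intervals were below 1 at 7 kinases (35%) and above 1 at 3 (15%), against 15.4% and 16.1% of all loci. The kinases' median level in wild-type was 26.3 RPKM against 9.29 over all loci, and the shares were not matched for level. Their summed level was 632 RPKM in wild-type and 592 RPKM in *wlp2s*, and their summed counts were 1.07-fold (1.04 to 1.09) lower. The kinases' share of the summed RPKM of all members was 28.3% in wild-type and 23.8% in *wlp2s*.

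The most abundant kinase, LOC_Os04g49510 (calmodulin-domain protein kinase 5), stood at 103 RPKM in wild-type and at 82.9 in *wlp2s*. It was 1.22-fold (1.15 to 1.30) lower, and each of its 4 transcript models had a difference below 0, from -0.39 to -0.20. LOC_Os07g38120, next but one by mean level over both libraries, stood at 62.4 and 54.0 RPKM and was 1.16-fold (1.07 to 1.25) lower. Between them lay LOC_Os01g43410 at 63.0 and 64.6 RPKM, with a fold of 1.03 (0.95 to 1.11) that included 1.

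The kinase of at least 5 RPKM with the largest difference downwards was LOC_Os02g46090, with 6.23 RPKM in wild-type and 3.94 in *wlp2s*, 1.58-fold (1.19 to 2.09) lower. Well-expressed kinases were also among the lower ones. LOC_Os02g03410 (calcium-dependent protein kinase 16) stood at 44.8 and 33.2 RPKM and was 1.35-fold (1.22 to 1.49) lower, with whole-number counts of 885 and 674. Both LOC_Os03g03660, at 39.2 and 29.9 RPKM, and LOC_Os12g07230, at 57.1 and 46.7 RPKM, had intervals below 1. These last 3 loci lie outside the rule for named genes and were chosen after their values were seen.

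The share of kinases with intervals above 1 was near that of all loci. The largest difference upwards was that of LOC_Os03g59390 (calcium-dependent protein kinase 19), with 46.3 RPKM in wild-type and 63.0 in *wlp2s*, with a difference of 0.44 and a fold of 1.36 (1.25 to 1.48). The other kinases with intervals above 1 were LOC_Os07g06740, at 31.6 and 38.4 RPKM, and LOC_Os03g48270, at 21.0 and 24.7 RPKM.

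**Figure D2:**
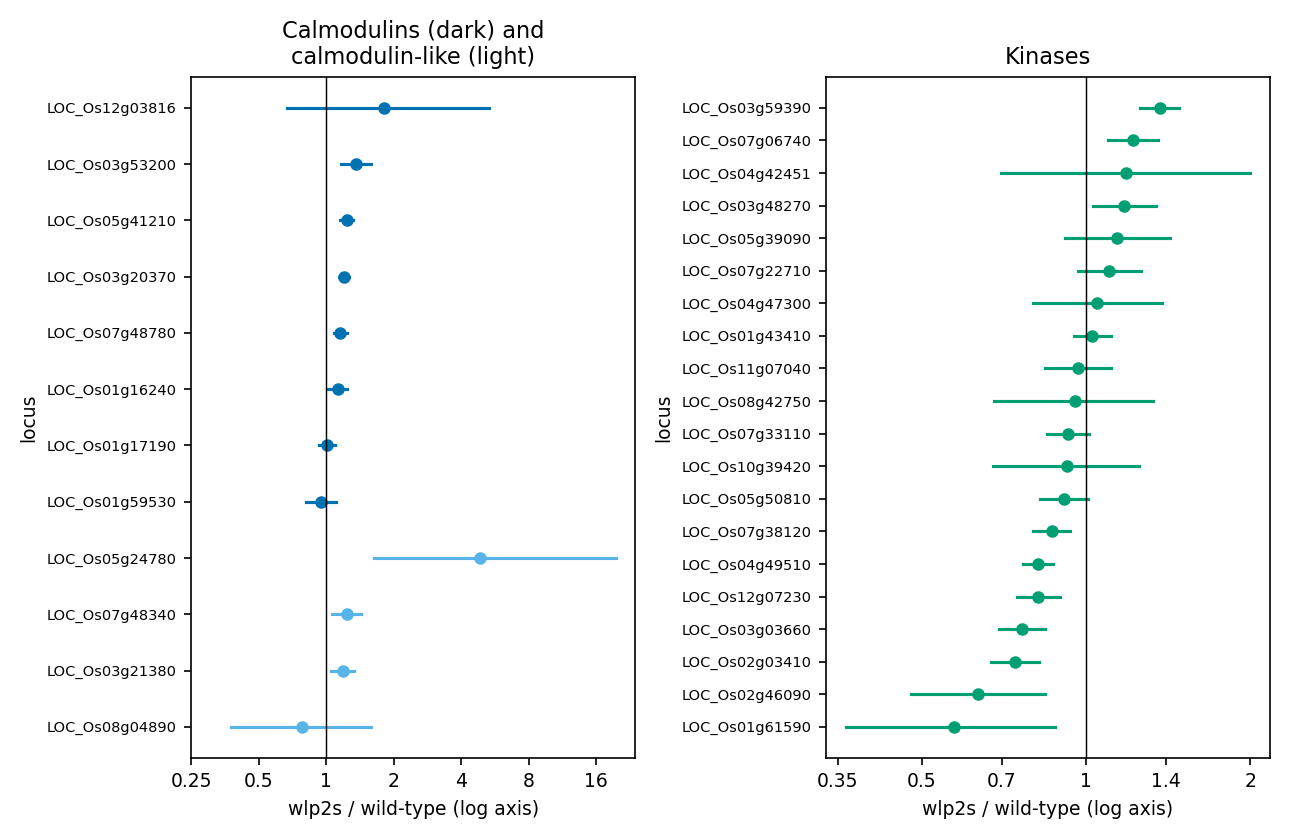
Fold of each calmodulin, calmodulin-like protein (left) and kinase (right) past the filter, as *wlp2s* over wild-type depth-scaled counts on a log axis. Points are folds and lines exact 95% counting intervals, with 1 library per genotype. Intervals lie above 1 at 5 of 8 calmodulins, and below 1 at 7 of 20 kinases and above 1 at 3.

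The largest differences were in EF-hand family genes, whose description gives no closer name. Of 42 loci, 32 passed the filter, 4 were higher by the size rule (12.5%, against 1.79% of all loci) and none was lower (against 1.01%). Intervals were above 1 at 12 (37.5%, against 16.1% of all loci) and below 1 at 4 (12.5%, against 15.4%). Their summed level was 534 RPKM in wild-type and 662 RPKM in *wlp2s*, and summed counts were 1.13-fold (1.09 to 1.16) higher.

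The widest gap was at LOC_Os01g72530, on chromosome 1, with 8.86 RPKM in wild-type and 34.6 RPKM in *wlp2s* (80.4 and 322 counts). Its difference was 1.85 and its fold 3.91 (3.06 to 5.07). Reads were divided at this locus, and the calmodulin-like LOC_Os01g72540, whose identifier comes directly after it, had 0 and 1 counts. LOC_Os07g43800 had 24 counts in wild-type and 100 in *wlp2s*, or 2.80 and 11.4 RPKM, a fold of 4.06 (2.58 to 6.62). LOC_Os09g24580 had 43 and 141 counts, or 9.74 and 31.1 RPKM, a fold of 3.19 (2.25 to 4.60). At both of these loci the counts were whole numbers in both libraries.

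LOC_Os06g46950 was the most abundant of the 4, at 41.1 RPKM in wild-type and at 84.4 in *wlp2s*. With 305 and 644 counts its fold was 2.06 (1.79 to 2.36), and its difference of 1.02 lay just inside the size rule and was 0.96 with 5 in place of 1 added to RPKM, under it. Just outside lay LOC_Os03g59770 at 0.95, with 2 and 11.7 counts, and LOC_Os03g33570 at 0.90, with 22.2 and 45 counts. The 5 loci past the rule lie on 5 different chromosomes, 1, 5, 6, 7 and 9.

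LOC_Os06g46950 was second in level among the EF-hand genes, and its neighbours in that order were not past the size rule. The highest, LOC_Os09g28510, stood at 87.7 RPKM in wild-type and at 99.98 in *wlp2s*, a fold of 1.14 (1.02 to 1.28). The one after LOC_Os06g46950, LOC_Os03g14590, stood at 50.8 and 63.2 RPKM, a fold of 1.23 (1.13 to 1.33). The lower group was led by LOC_Os04g41540, at 6.73 RPKM in wild-type and at 3.41 in *wlp2s*, with a difference of -0.81, and it was 1.97-fold (1.32 to 3.0) lower. That is the largest difference downwards among the members past the filter.

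The EF-hand genes past the size rule had short transcripts, a property that the member rule did not use. The length of each model follows from its deposited count and RPKM and came out whole for all 36450 models within 0.01 bases. Of the 14 EF-hand loci whose longest model was at most 1000 bases, 4 were higher by the size rule and the median difference was 0.60. Of the 18 longer ones none was higher or lower and the median was -0.05. Over all loci, the share higher was 4.38% of 3535 short loci and 1.18% of 15104 long ones, with medians of 0.08 and -0.01. The limit of 1000 bases was chosen with the values known, and LOC_Os01g72530, at 999 bases, lies at its edge. The fifth higher member, LOC_Os05g24780, was also short, at 855 bases. No other short member outside the EF-hand family was past the size rule. Among these were the calmodulins LOC_Os03g20370 and LOC_Os07g48780, at 970 and 936 bases. Over all roles 5 of 21 short members were higher and 0 of 46 longer ones.

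**Figure D3:**
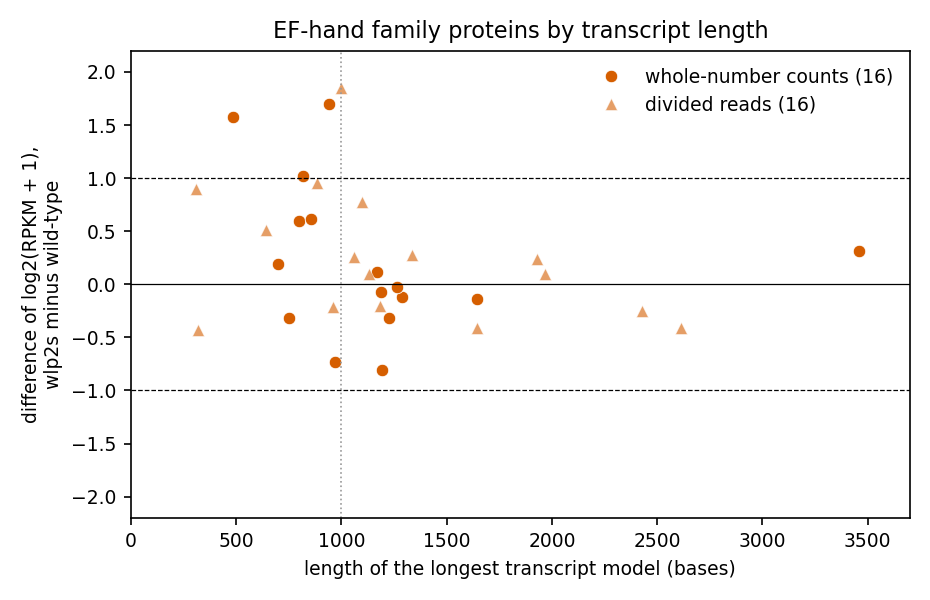
Difference of log2(RPKM + 1), *wlp2s* minus wild-type, of the 32 EF-hand family loci past the filter against the length of the longest transcript model in bases. Circles have whole-number counts and triangles divided reads, the dotted line marks 1000 bases and the dashed lines the size rule. The 4 loci above the upper dashed line are all under 1000 bases long.

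Loci of pathogenesis-related proteins and protease inhibitors, a list of defence genes, were also higher by the size rule more often than all loci. Of 60 such loci 25 passed the filter, and 10 of these were higher (40%) and none lower. The filter admits a locus through either library. In wild-type the 25 had a median of 1.90 RPKM and a minimum of 0, so entry through *wlp2s* alone occurred. How many of the 25 entered that way was not counted, and such loci raise the share of higher ones. The shares over all loci were 1.79% and 1.01%. This list too was of short loci, with a median length of 934 bases past the filter. Of the 60 loci, 15 were at 0 in wild-type and 4 in *wlp2s*. Their summed level was 223 RPKM in wild-type and 347 RPKM in *wlp2s*, and their part in the EF-hand result was not tested.

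**Figure D4:**
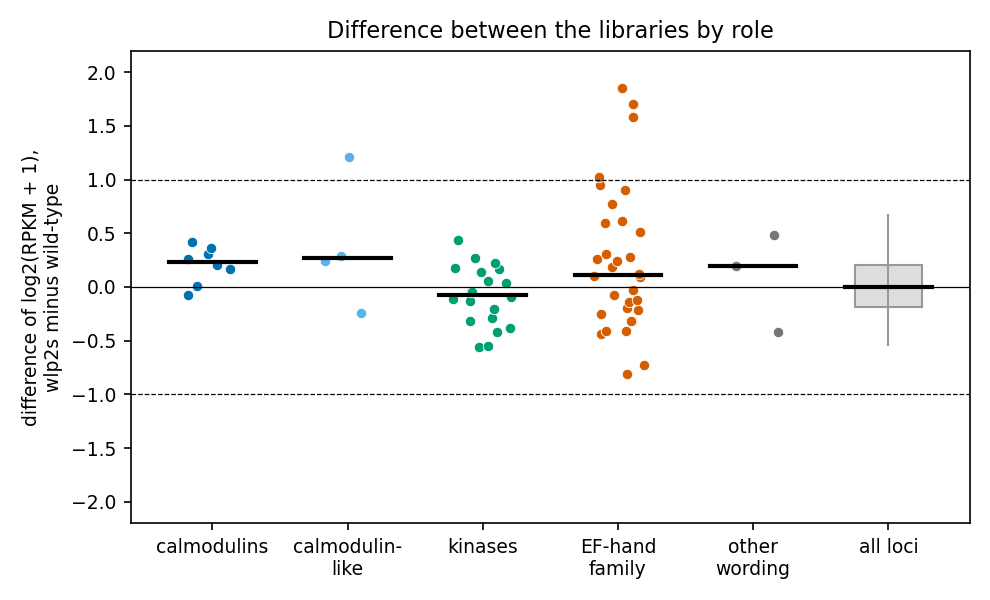
Difference of log2(RPKM + 1), *wlp2s* minus wild-type, of the 67 members past the filter by role, with bars at the medians. For all loci the box spans the 25th to the 75th percentile and the line the range from the 5th to the 95th percentile. The EF-hand family is the widest, from -0.81 to 1.85, and kinases run from -0.56 to 0.44.

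Some members were too low to compare. The 25 loci below the filter had at most 12.7 counts in wild-type and 13.7 in *wlp2s*. A count of 0 was found at 8 of the 92 members in wild-type and at 2 in *wlp2s*, which allows up to 3 counts each. The 25 kDa CAM-binding locus LOC_Os07g48710, with 8 and 1 counts, was the only one of the 25 with an interval that excluded 1. All 3 loci described as calcium-dependent protein kinase 17 were below the filter. Of the members with other wording that passed, the calmodulin-related LOC_Os04g45180 stood at 10.7 and 12.4 RPKM, within counting error. The 25 kDa CAM-binding LOC_Os11g03660 stood at 3.10 and 2.06 RPKM and LOC_Os01g17050 at 2.05 and 3.25 RPKM, both within counting error too.

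Genes that act around these sensors were read as 11 lists from the same descriptions. They cover proteins that bind calmodulin, the calcineurin B-like sensors with their interacting kinases (CIPK), kinases related to the calcium-dependent ones, calcium pumps, exchangers and channels, annexins, calcium-holding chaperones of the endoplasmic reticulum, other proteins worded with EF hand, and the respiratory burst oxidases that make superoxide. Few loci of these lists were past the size rule. There was 1 higher locus, among 49 calmodulin-binding proteins past the filter (2.04%, against 1.79% of all loci). There was 1 lower locus each among 11 exchangers, 6 annexins and 4 respiratory burst oxidases, against 1.01% of all loci. A single locus in a list this small says little about the list.

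Kinases outside the member rule had medians below 0. Over all 18639 loci past the filter, 9271 were below 0 and 9368 above 0, and 15.4% had intervals below 1 and 16.1% above 1. Of 26 CIPK loci past the filter, 17 were below 0, with a median of -0.22. Intervals were below 1 at 12 of them (46.2%) and above 1 at 6 (23.1%). The summed counts of CIPK loci were 0.99 times those of wild-type (0.97 to 1.01), so that the sum did not differ by more than counting error. All 5 CDPK-related kinases past the filter were below 0, 3 with intervals below 1, and their summed counts were 0.82 times those of wild-type (0.77 to 0.88). All 5 chaperones were above 0 and 4 had intervals above 1, with summed counts 1.21-fold (1.18 to 1.25) higher. These include calreticulin 1a (LOC_Os07g14270), a calcium store of the endoplasmic reticulum, at 122 and 159 RPKM. The proteins worded with EF hand that the member rule left out also lay mostly above 0, at 15 of the 20 past the filter. Their median was 0.21, 6 had intervals above 1 and 2 below 1, and their summed counts were 1.15-fold (1.11 to 1.19) higher.

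The calmodulin-binding protein LOC_Os01g04280 stood at 32.3 RPKM in wild-type and at 75.4 in *wlp2s*, a fold of 2.34 (2.12 to 2.58). Annexin 4 (LOC_Os05g31750), one of a family of calcium-dependent membrane-binding proteins, stood at 5.29 and 1.26 RPKM and was 4.20-fold (2.61 to 7.04) lower. The locus LOC_Os01g25820, described as respiratory burst oxidase homologue D, stood at 8.86 and 3.10 RPKM and was 2.86-fold (2.26 to 3.63) lower. These 3 had whole-number counts in both libraries. Another locus with the oxidase D description, LOC_Os11g33120, stood at 96.7 and 118 RPKM and was 1.22-fold (1.16 to 1.28) higher, and the summed counts of the oxidases were 1.08-fold (1.03 to 1.13) higher.

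**Figure D5:**
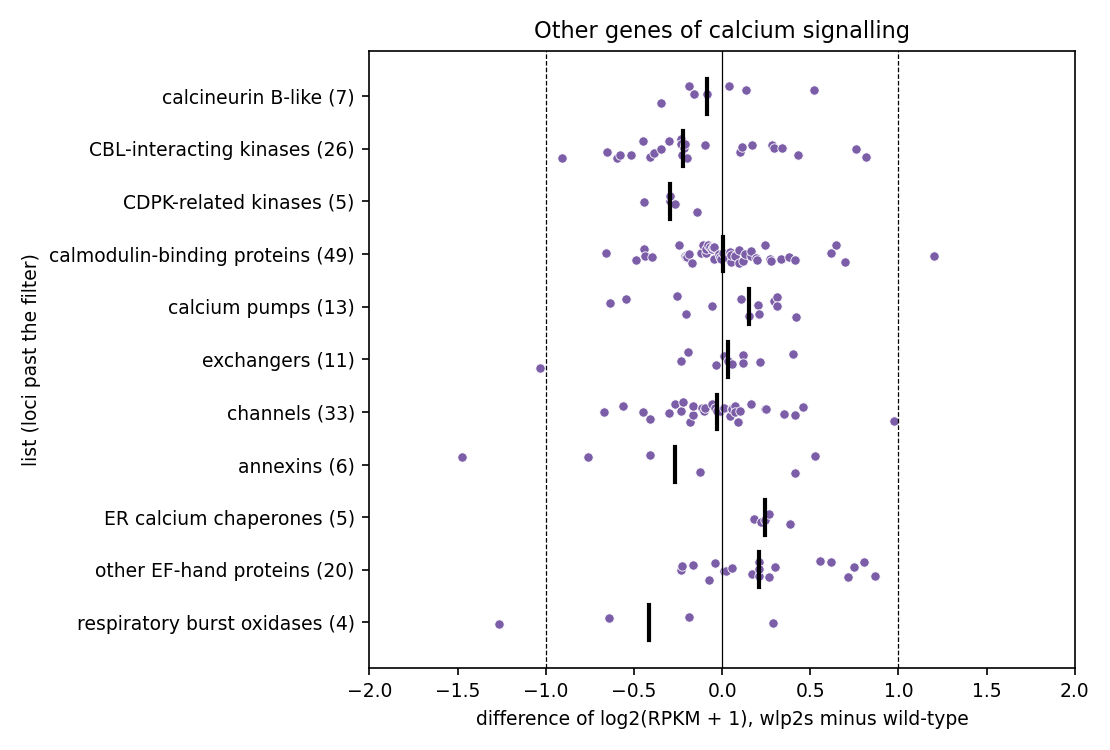
Difference of log2(RPKM + 1), *wlp2s* minus wild-type, of the loci past the filter in 11 lists of other calcium signalling genes, with bars at the medians and dashed lines at the size rule. Of the points beyond the dashed lines, 1 calmodulin-binding protein is higher and 1 exchanger, 1 annexin and 1 respiratory burst oxidase are lower.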

How the data were processed

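For every transcript model the authors deposited estimated counts, which are raw and in part fractional, and RPKM values that equal the count over model length and library total. TopHat, Cufflinks and Cuffdiff are named in the submitters' processing notes, with no versions. The genome build and annotation release are not given in the sources used here. A second deposited table, the authors' own comparison (log2 fold change, P, FDR) with 4 repeated value columns, was not used. Its headings are wlp1 and ZH11 (short for the wild-type cultivar), and whether wlp1 is another name for this mutant was not settled.

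Models were summed to loci with Python 3.11.15, numpy 2.4.6, pandas 2.3.3, scipy 1.17.1 and matplotlib 3.10.9. Counts were rounded for the exact intervals, which cover counting error only, as reads carry no molecular identifiers. The floor was 3 counts. The calculation was tested on simulated data. The members and lists were chosen with earlier results of these data known. Named genes were members past the size rule, the 3 highest of each role, the largest difference each way per role among loci of at least 5 RPKM, and up to 3 loci past the size rule per list with at least 5 RPKM. Which loci share reads is not recorded, so the part of the rule on shared reads was not applied. Alternatives to the pseudocount, filter, scaling, size rule, wording and unit were run. Descriptions are Arabidopsis matches; 0 of the 92 members were found in the reference table of symbols, and sequences were not analysed here.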

Additional observations from a re-analysis of the deposited data

How the results depend on the processing

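The count of higher members was 5 and that of lower members 0. With 5 added to RPKM before the logarithm 3 members were higher (4.48%, against 0.43% of all loci), as LOC_Os05g24780 and LOC_Os06g46950 were then at 0.45 and 0.96. With 0.1 added 7 were higher and 1 was lower (10.45% and 1.49%), against 4.18% and 2.67% of all loci. With a 1.5-fold size rule 10 were higher and 2 lower, against 6.56% and 4.20% of all loci. Without the loci matched by EF-hand wording alone 1 of 35 was higher (2.86%, against 1.79% of all loci). With whole-number counts only, the medians of calmodulins and calmodulin-like proteins were 0.37 and 1.21, each from 1 locus, and that of kinases was 0.01 in place of -0.07. As total counts in place of total RPKM, the ratio was 1.06 in place of 1.12 over all members and 1.13 in place of 1.24 for EF-hand family proteins. Without its highest locus the kinase ratio was 0.96 in place of 0.94. A count was held unchanged within 1.5-fold, a median within 0.1 and a ratio within its counting interval. By these limits 72 values of these results were unchanged, among them the kinase median and the 7 higher members with 0.1 added. Of 96 values of the 24 named members, 94 stayed on the same side of the size rule and in the same direction where past it. Leaving out the 25 kDa loci, adding loci worded EF hand and asking for 20 counts were chosen after seeing the data, and the counts stayed at 5 and 0. No scaling moved the median of all loci by over 0.1. No paired analysis was possible because each genotype has 1 library. Depth limits the members with few counts, such as LOC_Os05g24780.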

Other observations

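Members were spread over all 12 chromosomes, from 4 on chromosomes 6 and 10 to 14 on chromosome 3. Some stand close together by identifier. On chromosome 11 LOC_Os11g04480 and LOC_Os11g04560, and on chromosome 12 LOC_Os12g04240 and LOC_Os12g04360, are EF-hand family loci with low numbers on their chromosomes. All 4 had differences above 0, at 16.2 and 19.9, 1.00 and 2.43, 26.3 and 31.2, and 1.79 and 3.22 RPKM in wild-type and *wlp2s*. Reads were divided at all but LOC_Os12g04360, and the interval of LOC_Os12g04360 included 1.

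The EF-hand locus LOC_Os02g03020 had whole-number counts of 193 in wild-type and 307 in *wlp2s*, a fold of 1.55 (1.29 to 1.86) below the size rule, and at 856 bases it is another short locus.

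Of the channels, the glutamate receptor 2.8 locus LOC_Os09g26144 stood closest to the size rule, with 62 counts in wild-type and 154 in *wlp2s*, a fold of 2.42 (1.79 to 3.30). By the difference of log2(RPKM + 1), the CIPK locus that differed most was CBL-interacting protein kinase 4 (LOC_Os12g41090), with 5.21 and 2.31 RPKM, and it was 2.26-fold (1.47 to 3.49) lower. By fold, among CIPK loci past the filter, it was SOS3-interacting protein 1 (LOC_Os12g02200), with 0.582 and 1.79 RPKM and 3.08-fold (1.49 to 6.16) higher. That locus passed the filter only through *wlp2s*, and reads were divided there (11.5 and 36.3 counts). The cation exchanger 3 locus LOC_Os02g21009, at 2.73 and 0.82 RPKM, was the exchanger past the size rule.

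By the deposited GO terms, binding was carried by 5 of the 5 members past the size rule and by 47 of the other 62 members past the filter. Calcium ion binding was carried by 0 and 6 of them. Most members thus lack the calcium term whatever their description, so its absence says nothing about a protein. The share of all loci with either term was not counted.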
